A study of Mus musculus with 4 samples.

Results

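Transcripts of 10 transcription factor genes of endothelium, endocardium and early blood were followed in cells derived from mouse embryonic stem cells and grown towards the heart lineage. The genes were chosen by name from a table of 39179 gene identifiers, and all 10 were found there. They are the ETS family genes Ets1, Ets2, Erg, Fli1 and Etv2, the TAL1 complex genes Tal1, Lyl1 and Lmo2, and Runx1 and Nfatc1. The cucurbitacin I group held 2 libraries of cells given 10 µM cucurbitacin I hydrate for 2 days. This triterpenoid from cucurbit plants is used in cell culture to block JAK2 and STAT3. The DMSO group held 2 libraries of cells given the solvent alone for the same time. The solvent was at 0.1% of the medium in both groups. Both groups came from the same embryonic stem cell line with an inducible Gata6 gene, and the labels state neither whether Gata6 was induced nor whether replicate libraries were grown in separate cultures. The p-values therefore measure the spread between these libraries, which may be technical. Treatment began on day 6 of differentiation, and the labels give the harvest as day 8 in the titles but day 10 in the RNA protocol.

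Total counts were 26773886 and 23759431 in the cucurbitacin I libraries and 27069312 and 25573785 in the DMSO libraries. All 12 listed markers of cardiac progenitors and cardiomyocytes were counted in every library, and their summed level was 12060 and 15940 CPM (counts scaled to a common library total by TMM) with cucurbitacin I and 6909 and 8381 CPM with DMSO. Tnnt2 alone averaged 6485 CPM with cucurbitacin I and 2222 CPM with DMSO, so the sum does not stand for all 12 markers. The 7 markers of undifferentiated stem cells summed to 2.09 and 3.03 CPM with cucurbitacin I and 3.48 and 3.79 CPM with DMSO. Of 16722 genes tested across the table with edgeR at an adjusted p below 0.05, 33.4% passed, 13.9% higher and 19.5% lower with cucurbitacin I. With library totals in place of TMM factors as the scaling, higher genes made up 18.2% of the calls, against 41.6%, and the median over all genes tested moved to -0.24 on the log2 scale, against -0.01, so each change below is relative to the TMM scaling. The smallest p that an exact permutation test over these 4 libraries could reach for 1 gene was 0.333.

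ETS factors share a winged helix-turn-helix domain that binds DNA around a GGAA core, and several of them act together at enhancers of endothelial genes. ETV2 starts the blood and endothelial programme in mesoderm and is switched off soon after, whereas ERG and FLI1 maintain endothelial identity. TAL1 and LYL1 are related basic helix-loop-helix proteins that bind DNA with E proteins and join LMO2, a LIM-domain bridge, LDB1 and GATA factors in complexes of hemogenic endothelium and blood. RUNX1 drives the step from hemogenic endothelium to blood cells, and NFATC1, which enters the nucleus after calcineurin removes its phosphates, marks the endocardium and is needed for the heart valves.

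The transcripts of 6 of the 9 factors tested were lower with cucurbitacin I, 0 were higher and 3 did not pass, against 19.5% lower among all genes tested. The TAL1 complex genes fell furthest, Tal1 to 6.34%, Lmo2 to 8.59% and Lyl1 to 9.67% of the DMSO level. Ets1 and Fli1 fell to 45.3% and 46.6%, and Ets2 to 68.1%. Erg, Nfatc1 and Runx1 did not pass, and Etv2 had too few counts to be tested. The median log2 fold change of the 9 tested factors was -1.14. In 8 of the 9, both cucurbitacin I libraries lay below both DMSO libraries, a pattern shown by 37.4% of all genes tested, and Runx1 was the exception. Groups that did not overlap, in either direction, were found for 73.0% of all genes tested. In RNA from whole cultures, fewer cells of a type and less RNA per cell cannot be told apart.

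**Figure D1:**
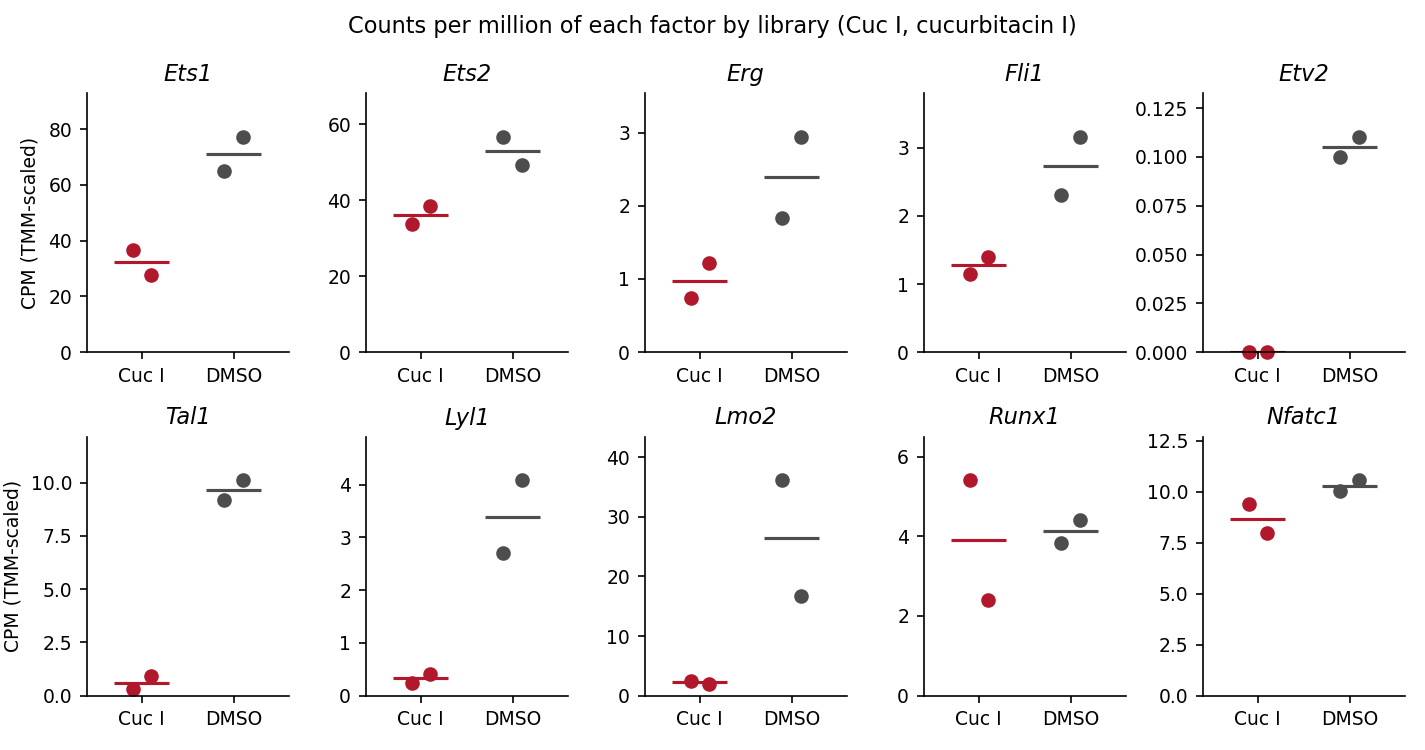
TMM-scaled CPM (linear axes from 0) of each factor in the 2 cucurbitacin I and the 2 DMSO libraries, with the group mean as a bar. The groups are apart in every panel but that of Runx1, whose cucurbitacin I libraries lie at 5.41 and 2.39 CPM.

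Most listed markers of red cells, megakaryocytes, macrophages and endoderm moved in the same direction, beside 19.5% lower among all genes tested. Of 11 erythroid markers, 10 were lower, and their sum was 22 and 68.7 CPM with cucurbitacin I and 606 and 841 CPM with DMSO. Of 8 megakaryocyte and platelet markers, 7 were lower, with sums of 2.09 and 3.93 CPM with cucurbitacin I and 51.5 and 65.7 CPM with DMSO, and Gp9 and Gp6 had 0 counts in both cucurbitacin I libraries. Of 11 macrophage markers tested out of 12, 9 were lower, with sums of 19.6 and 19.3 CPM with cucurbitacin I and 73.9 and 70.9 CPM with DMSO, and Tyrobp had 0 counts with cucurbitacin I. Csf1r, the receptor for the macrophage growth factor CSF1, held 17.6 ± 0.551 CPM of the cucurbitacin I sum and 19.3 ± 1.06 CPM of the DMSO sum (SD, n = 2). The median log2 fold changes of these lists were -4.47 for erythroid, -5.79 for megakaryocyte and -5.19 for macrophage markers, or -4.70 and -4.75 for the last 2 lists with each gene at 0 taken as 3 counts in the cucurbitacin I group. Endoderm markers, 9 of 10 of them lower, summed to 9.34 and 10.7 CPM with cucurbitacin I and 564 and 793 CPM with DMSO. The part of these cells in the levels of the factors was not tested.

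The markers with the lowest adjusted p in each list were as follows. Alas2, which starts heme synthesis in red cells, fell by 4.57, the red cell anion exchanger gene Slc4a1 fell by 5.26 and Ermap fell by 3.45 on the log2 scale (edgeR adjusted p 0.00199 to 0.00278). Pf4, which encodes platelet factor 4, had 2 counts with cucurbitacin I and 1147 with DMSO, a DMSO over cucurbitacin I ratio of 467 (exact 95% counting interval 129 to 3864). Treml1 had 1 count with cucurbitacin I and 167 with DMSO, a ratio of 136 (24.1 to 5408), and Plek fell by 4.63 (edgeR adjusted p = 0.00128). The macrophage scavenger receptor gene Marco had 2 counts with cucurbitacin I and 1058 with DMSO, a ratio of 431 (119 to 3565), Cd14 a ratio of 82.7 (32.1 to 305) and Laptm5 one of 37.5 (17.99 to 94.0). Of the endoderm products, Afp fell by 7.67, Ttr fell by 6.22, and Apob had a ratio of 175 (74.9 to 541). Among the 12 cardiac markers, 4 were higher and 3 lower, or 33.3% and 25.0%, beside 13.9% and 19.5% of all genes tested. The sarcomere genes Ttn and Tnnt2 were higher by 1.57 and 1.55 and Mef2c by 0.63, while the heart field factor gene Hand1 fell by 3.38. Without DMSO replicate 1 only 1 cardiac marker was higher, and Tnnt2 and Mef2c did not pass (adjusted p = 0.069 and 0.0624).

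Among the ETS genes, only Ets1 passed under every alternative run. Ets1 (ENSMUSG00000032035, mm10 chromosome 9, 32636221 to 32757820, plus strand) was at 36.8 and 27.65 CPM in the cucurbitacin I libraries and at 64.9 and 77.3 CPM in the DMSO libraries. Every cucurbitacin I value lay below every DMSO value, and the counts behind them were 897 and 612 with cucurbitacin I and 1944 and 2100 with DMSO. ETS1 is active in endothelium and in lymphocytes. The group means were 32.2 ± 6.44 CPM with cucurbitacin I and 71.1 ± 8.73 CPM with DMSO (SD, n = 2). This gave -1.14 as log2 fold change (SE 0.17, edgeR adjusted p = 0.0084). Its adjusted p stayed between 1.57e-06 and 0.0334 under all 10 alternatives.

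Ets2 (ENSMUSG00000022895, chromosome 16, 95702075 to 95721051, plus strand), the closest relative of Ets1 and a target of MAP kinase signalling, was at 33.7 and 38.5 CPM with cucurbitacin I and at 56.8 and 49.2 CPM with DMSO. The groups did not overlap, but the change was smaller than for Ets1, with a log2 fold change of -0.55 (SE 0.12, edgeR adjusted p = 0.0235). The call was lost without DMSO replicate 1 (-0.45, adjusted p = 0.131) and without cucurbitacin I replicate 1 (-0.45, adjusted p = 0.0693). Per kilobase of exon, the ratio of Ets1 to Ets2 was 0.744 and 0.490 in the cucurbitacin I libraries and 0.780 and 1.07 in the DMSO libraries. This ratio is taken within each library and does not depend on scaling, and its groups lay close together without overlapping.

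Erg and Fli1, which encode closely related ETS proteins of endothelium and megakaryocytes, were counted far less. Erg (ENSMUSG00000040732, chromosome 16, 95359169 to 95586593, minus strand) had 18 and 27 counts with cucurbitacin I and 55 and 80 counts with DMSO, or 0.738 and 1.22 CPM with cucurbitacin I and 1.84 and 2.94 CPM with DMSO. The groups did not overlap, and the log2 fold change of -1.29 (SE 0.41) did not pass (edgeR adjusted p = 0.0591). Erg passed with library totals as the scaling (-1.52, adjusted p = 0.0309), without a filter on low counts (-1.29, adjusted p = 0.0357) and without cucurbitacin I replicate 2 (-1.68, adjusted p = 0.0487). Fli1 (ENSMUSG00000016087, chromosome 9, 32422204 to 32542861, minus strand) had 28 and 31 counts with cucurbitacin I and 69 and 86 counts with DMSO, or 1.15 and 1.40 CPM with cucurbitacin I and 2.31 and 3.17 CPM with DMSO. Its log2 fold change was -1.10 (SE 0.31) and it passed narrowly (edgeR adjusted p = 0.0438). Fli1 did not pass with DESeq2 (-1.11, adjusted p = 0.0781) or with any of the 4 libraries left out (log2 fold change -1.31 to -0.85, adjusted p 0.07 to 0.192). In the authors' deposited table, whose log2 fold changes carry the sign of cucurbitacin I over DMSO by the counts, Erg stood at -1.12 (adjusted p = 0.0256) and Fli1 at -1.02 (adjusted p = 0.00831). The ratio of Erg to Fli1 per exonic kilobase was 0.647 and 0.876 with cucurbitacin I and 0.802 and 0.936 with DMSO, so the groups overlapped.

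These 4 genes form a pair of neighbours on each of 2 chromosomes. Erg and Ets2 lie on chromosome 16 with 115.5 kb and no other gene of the table between them, and are read away from each other. Fli1 and Ets1 lie in the same arrangement on chromosome 9, with 93.4 kb between them and 1 gene there that does not code for protein. In each neighbourhood Ets1 or Ets2 stood well above its neighbour per exonic kilobase. The ratio of Ets2 to Erg per exonic kilobase was 27.4 and 18.9 with cucurbitacin I and 18.5 and 10.0 with DMSO, without overlap. That of Ets1 to Fli1 was 13.2 and 8.12 with cucurbitacin I and 11.6 and 10.0 with DMSO, with overlap. Runx1 also lies on chromosome 16, 2533.1 kb from Erg.

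Etv2 (ENSMUSG00000006311, chromosome 7, 30633616 to 30635852, minus strand) had 0 and 0 counts with cucurbitacin I and 3 and 3 counts with DMSO. It did not pass the filter on low counts and has no test. The exact 95% counting interval of the DMSO over cucurbitacin I ratio began at 0.960, so no difference was detectable at this depth. Together the 5 ETS genes summed to 10.7 CPM per kilobase in both cucurbitacin I libraries and to 18.8 and 19.5 in the DMSO libraries. Ets2 made up 54.4% and 62.4% of that sum with cucurbitacin I and 52.3% and 43.7% with DMSO.

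**Figure D2:**
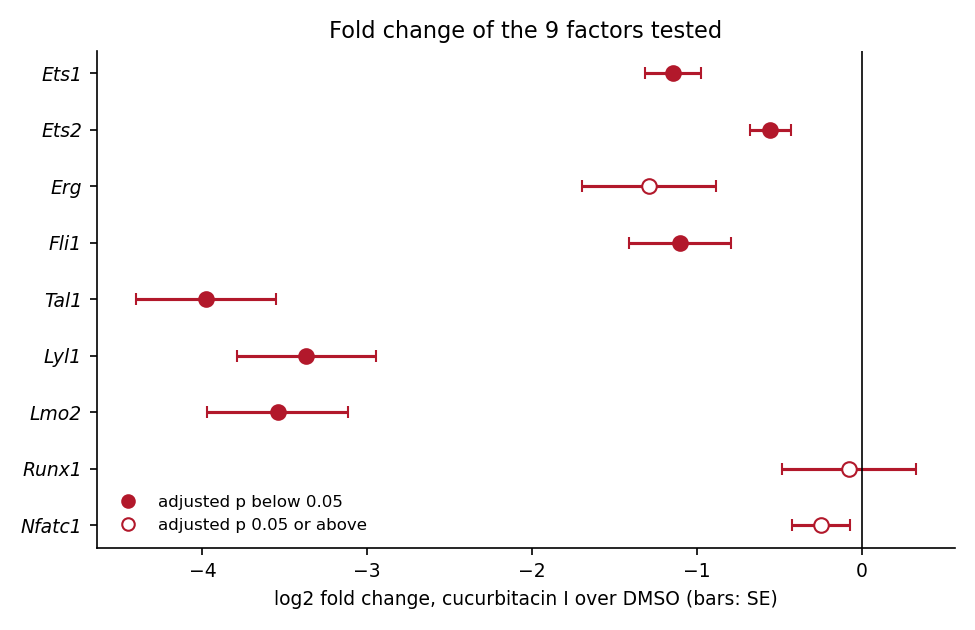
Log2 fold change of cucurbitacin I over DMSO for the 9 factors tested, with the standard error as bars and filled points for an adjusted p below 0.05. Tal1, Lyl1 and Lmo2 lie between -3.98 and -3.37, the ETS genes between -1.29 and -0.55, and Runx1 and Nfatc1 near 0.

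The upstream sequences of Tal1 and Lyl1 are shown because these related genes had large falls of like size. They are the 250 bases before each start in RefSeq's table for GRCm38.p6, the same assembly as mm10, and no annotated exon lies in them. Capitals mark the ETS motif GGAAG and the GATA motif GATAA on either strand. The E-box CAGNTG and the RUNX motif TGNGGT were searched too, on both strands, and are not capitalised. No match overlaps another in these windows. Across the 32851 windows of that length in the table, 64.1% held the ETS motif, 22.6% the GATA motif, 44.8% the E-box and 40.1% the RUNX motif, so a match describes the letters and is not a binding site.
Tal1, first start, chr4:115056176-115056425, plus strand: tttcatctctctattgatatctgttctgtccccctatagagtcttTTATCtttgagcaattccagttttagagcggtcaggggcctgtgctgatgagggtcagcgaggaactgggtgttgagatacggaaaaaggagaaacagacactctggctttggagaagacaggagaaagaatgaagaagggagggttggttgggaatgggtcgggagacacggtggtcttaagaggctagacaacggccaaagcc
Tal1, second start, chr4:115057561-115057810, plus strand: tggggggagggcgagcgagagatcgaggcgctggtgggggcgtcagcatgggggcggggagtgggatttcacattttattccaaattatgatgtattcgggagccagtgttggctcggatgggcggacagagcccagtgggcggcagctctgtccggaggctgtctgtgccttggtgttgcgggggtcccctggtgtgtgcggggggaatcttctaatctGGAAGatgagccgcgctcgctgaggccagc
Lyl1, chr8:84701207-84701456, plus strand: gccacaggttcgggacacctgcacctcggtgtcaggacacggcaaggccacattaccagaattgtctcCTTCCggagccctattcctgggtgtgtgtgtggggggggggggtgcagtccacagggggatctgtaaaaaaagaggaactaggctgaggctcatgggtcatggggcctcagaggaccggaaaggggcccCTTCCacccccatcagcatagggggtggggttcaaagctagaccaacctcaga

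The window at the first Tal1 start held 1 GATA motif and none of the other motifs, and that at the second start 1 ETS motif and none of the others. The Lyl1 window held 2 ETS motifs, 1 E-box, 2 RUNX motifs and 0 GATA motifs. Of the other members, windows of Erg, Ets2, Etv2 and Runx1 were searched. Member windows on chromosome 18, where Nfatc1 lies, were left out of the search. The window at the outermost of 3 Erg starts held none of the 4 motifs, the next held 1 ETS and 1 RUNX motif, and the innermost held 1 ETS motif, 1 GATA motif and 1 E-box. The Etv2 window held 2 ETS motifs and none of the others. The Ets2 window held none, and of the 2 Runx1 windows the outer held 1 ETS motif and 2 E-boxes and the inner none.

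Tal1 (ENSMUSG00000028717, chromosome 4, 115056426 to 115071755), the factor that commits mesoderm to blood, had the largest fold change of the 9 factors tested with all 4 libraries. It was at 0.328 and 0.904 CPM in the cucurbitacin I libraries and at 9.19 and 10.1 CPM in the DMSO libraries, from 8 and 20 counts with cucurbitacin I and 275 and 275 counts with DMSO. The cucurbitacin I libraries differed from each other 2.76-fold, the DMSO libraries 1.10-fold, and the groups were far apart. The log2 fold change was -3.98 (SE 0.43, edgeR adjusted p = 0.00396), and 2.57% of all genes tested had a lower one. It ranged from -4.86 without cucurbitacin I replicate 2 to -3.40 without cucurbitacin I replicate 1. Lmo2 fell further than Tal1 without cucurbitacin I replicate 1, at -3.73. It also did so without DMSO replicate 2, at -3.99 against -3.91 for Tal1.

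Lyl1 (ENSMUSG00000034041, chromosome 8, 84701457 to 84704715, plus strand), which can stand in for Tal1 in adult blood stem cells, was at 0.246 and 0.407 CPM with cucurbitacin I and at 2.71 and 4.09 CPM with DMSO. The counts were 6 and 9 with cucurbitacin I and 81 and 111 with DMSO, and the groups did not overlap. The log2 fold change was -3.37 (SE 0.42, edgeR adjusted p = 0.00562). Lyl1 lies inside the span of Nfix on the opposite strand and shares 4 exonic bases with it, and the strand setting of the counting is not known here. Nfix had 38 and 40 counts with cucurbitacin I and 163 and 250 counts with DMSO, and also fell, by 2.12 on the log2 scale (edgeR adjusted p = 0.00978). The part of Nfix reads in the Lyl1 counts was not tested.

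Lmo2 (ENSMUSG00000032698, chromosome 2, 103957986 to 103981878, plus strand), the bridging subunit, had the most counts of the 3, at 2.54 and 1.99 CPM with cucurbitacin I and at 36.1 and 16.8 CPM with DMSO. The DMSO libraries differed 2.15-fold, yet the lower of them lay well above both cucurbitacin I libraries. The log2 fold change was -3.54 (SE 0.43, edgeR adjusted p = 0.00518), -2.88 without DMSO replicate 1 and -3.99 without DMSO replicate 2. Per exonic kilobase, Tal1 relative to Lmo2 was at 0.0638 and 0.225 with cucurbitacin I and at 0.126 and 0.298 with DMSO, which overlap. Tal1 relative to Lyl1 was at 0.548 and 0.914 with cucurbitacin I and at 1.40 and 1.02 with DMSO, which do not. These cucurbitacin I ratios rest on only 8 and 20 counts of Tal1 and 6 and 9 counts of Lyl1. Tal1 relative to Erg was at 0.352 and 0.586 with cucurbitacin I and at 3.96 and 2.72 with DMSO, a 7.22-fold smaller ratio with cucurbitacin I by the mean of logs.

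Of the listed partners and inhibitors of this complex and relatives of its subunits, 19 were tested, 13 were lower and 0 higher. That is 68.4% lower, beside 19.5% of all genes tested. The median log2 fold change was -1.30, and -1.54 to -1.19 over the alternatives. The list held 20 genes and was, like the others below, chosen with earlier results of these data known. Gata1, the erythroid and megakaryocyte partner, had 5 counts with cucurbitacin I and 203 with DMSO, a DMSO over cucurbitacin I ratio of 33.1 (exact 95% counting interval 13.9 to 103). Id2 and Id3, which encode inhibitors that hold E proteins off DNA, fell by 2.15 and 1.77 on the log2 scale (edgeR adjusted p = 0.00264 for both). Ldb1, the dimerizing subunit itself, had a mean of 261 ± 6.73 CPM with cucurbitacin I and 241 ± 0.656 CPM with DMSO (SD, n = 2). Its log2 fold change of 0.11 missed the threshold (edgeR adjusted p = 0.407). Ldb1 falls outside the naming rule and was chosen after its values were seen.

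Runx1 (ENSMUSG00000022952, chromosome 16, 92601467 to 92826066, minus strand) had no steady direction. It was at 5.41 and 2.39 CPM with cucurbitacin I and at 3.84 and 4.42 CPM with DMSO, so both DMSO values lay between the cucurbitacin I values. The log2 fold change was -0.08 (SE 0.40, edgeR adjusted p = 0.899), and its sign turned without cucurbitacin I replicate 2 (0.39, adjusted p = 0.335) and without DMSO replicate 2 (0.03, adjusted p = 0.976). An antisense gene shares 106 exonic bases with Runx1 and held 5.5% as many counts. Tal1 relative to Runx1, per exonic kilobase, was at 0.166 and 1.04 with cucurbitacin I and at 6.57 and 6.29 with DMSO, a 15.5-fold smaller ratio with cucurbitacin I. Of the 5 relatives and cofactors listed, 2 were lower, beside 19.5% of all genes tested. Runx3 had a log2 fold change of -3.06 (edgeR adjusted p = 0.00751), from 4 and 8 counts with cucurbitacin I and 61 and 64 counts with DMSO. Cbfa2t2 passed at -0.40 (edgeR adjusted p = 0.0441) but with none of the 4 libraries left out (adjusted p 0.0518 to 0.225). The list's count of lower genes was 1 without either DMSO library, without cucurbitacin I replicate 1 and at a mean of at least 50 counts, and 3 with library totals. Cbfb, the shared DNA-binding partner of RUNX proteins, was at -0.05, Runx1t1 at -0.29 and Runx2 at -0.68, with edgeR adjusted p of 0.703, 0.199 and 0.268. The sign of Cbfb turned without cucurbitacin I replicate 2, and Runx1t1 passed with library totals (adjusted p = 0.0458) and without that library (0.0487).

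Nfatc1 (ENSMUSG00000033016, chromosome 18, 80606205 to 80713071, minus strand) was at 9.38 and 7.95 CPM with cucurbitacin I and at 10.0 and 10.6 CPM with DMSO. The groups did not overlap but lay close together, with a log2 fold change of -0.25 (SE 0.18, edgeR adjusted p = 0.325). Its NFAT relatives and the calcineurin genes were higher in 4 of 14 tested, lower in 1 and not past the threshold in 9. The 28.6% higher and 7.14% lower stand beside 13.9% and 19.5% of all genes tested. Rcan1, a feedback inhibitor of calcineurin that NFAT induces, was at 0.52 (edgeR adjusted p = 0.0216), the kinase gene Dyrk1a at 0.42 (0.0215) and the regulatory subunit gene Ppp3r1 at 0.44 (0.038), and these passed, as did Rcan2 at 0.86 (0.0472), named after its value was seen. Nfatc4 fell by 1.66 (edgeR adjusted p = 0.00499). The 4 higher calls depend on scaling and library: with library totals 0 were higher and 2 lower, and the median turned to -0.06 in place of 0.17. At a mean of at least 50 counts 2 were higher, and with DESeq2 or with no filter on low counts 5 were. There were 0 higher calls without DMSO replicate 1, 1 without DMSO replicate 2, 2 without cucurbitacin I replicate 1 and 3 without cucurbitacin I replicate 2.

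**Figure D3:**
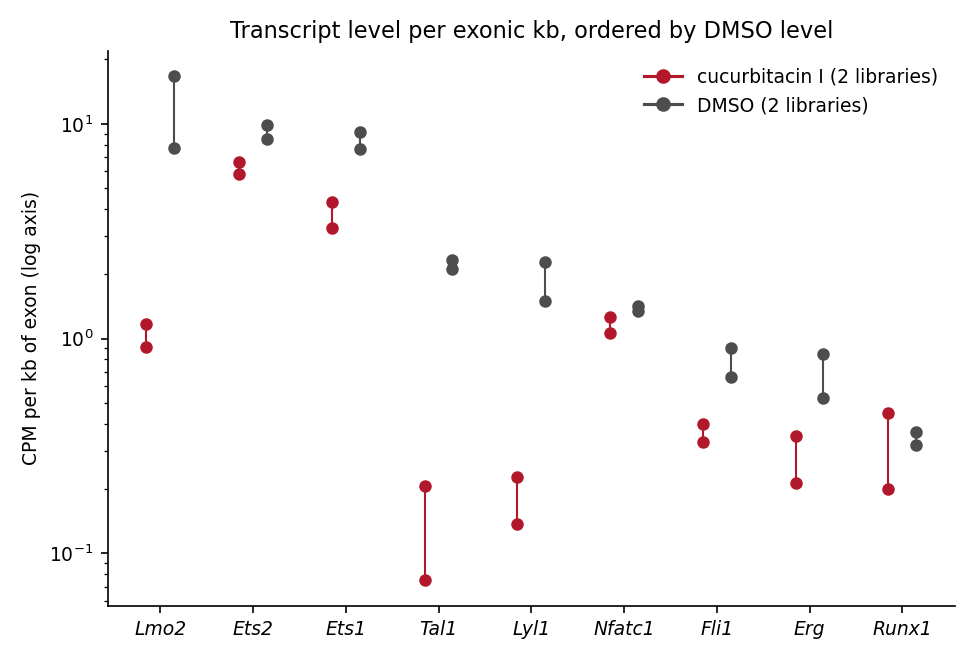
Level of 9 factors in CPM per kilobase of exon on a log axis, ordered by the DMSO mean, with the 2 libraries of each group joined by a line. Lmo2 stands highest with DMSO at 16.7 and 7.75, and Tal1 lowest with cucurbitacin I at 0.0749 and 0.206. Etv2, at 0 with cucurbitacin I, is not drawn.

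Levels per kilobase of exon gave a different order in the 2 groups. The length is that of all annotated exons of a gene merged, not of the transcripts present, so genes compare only roughly on this scale. With cucurbitacin I the order was Ets2 (6.24 ± 0.589 CPM per kilobase, SD, n = 2), Ets1 (3.80 ± 0.759), Nfatc1 (1.16 ± 0.135), Lmo2 (1.05 ± 0.181), Fli1, Runx1, Erg, Lyl1, Tal1 and Etv2. Nfatc1 and Lmo2 did not differ beyond their spread there, and neither did Fli1 from Runx1, Runx1 from Erg, Erg from Lyl1 or Lyl1 from Tal1. Tal1 lay above Etv2, which had 0 counts there. With DMSO it was Lmo2 (12.2 ± 6.32), Ets2 (9.17 ± 0.923), Ets1 (8.39 ± 1.03), Tal1 (2.20 ± 0.151), Lyl1 (1.89 ± 0.542), Nfatc1 (1.38 ± 0.0509), Fli1, Erg, Runx1 and Etv2. The first 3 overlapped there, as did Tal1 with Lyl1 and Fli1 with Erg. By these means Tal1 was at rank 9 with cucurbitacin I and at rank 4 with DMSO. Runx1 was at rank 6 with cucurbitacin I and at rank 9 with DMSO, but its cucurbitacin I libraries disagreed. It was at 0.450 and 0.199 there and Tal1 at 0.0749 and 0.206, so Runx1 lay above Tal1 in replicate 1 and below it in replicate 2. The rank of Runx1 with cucurbitacin I is therefore not settled.

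With TMM scaling and the filter on low counts, the other ETS family genes were called about as often as genes at large. Of 22 listed, 21 were in the table and 16 were tested, of which 3 were lower, 2 higher and 11 did not pass, with a median of -0.15. That is 18.8% lower and 12.5% higher, against 19.5% and 13.9% of all genes tested. The myeloid factor gene Spi1 had 1 count with cucurbitacin I and 111 with DMSO, a DMSO over cucurbitacin I ratio of 90.5 (exact 95% counting interval 15.9 to 3605). The epithelial factor gene Elf3 fell by 2.76 on the log2 scale (edgeR adjusted p = 0.00763) and Elf4 by 0.97 (0.0279). Etv3 was higher by 0.56 (edgeR adjusted p = 0.00954), and so was Etv6, by 0.71 (0.0155), named after its value was seen. Elf4 missed the threshold when the second library of DMSO (adjusted p = 0.108) or of cucurbitacin I (0.0507) was left out. Without DMSO replicate 1 Etv3 did not pass (adjusted p = 0.0657), 0 of these genes were higher and 3 lower. Without DMSO replicate 2, 1 was higher and 4 were lower. With library totals 7 of 16 were lower and 2 higher, beside 4767 lower and 1059 higher of all 16722 genes tested. With no filter on low counts 5 of 20 were lower and 2 higher, beside 3593 lower and 2400 higher of 24380.

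Of 19 other endothelial transcription factor genes tested, 13 were lower and 0 higher, with a median of -2.42 (-2.65 to -1.9 over the alternatives). That is 68.4% lower, beside 19.5% of all genes tested. Mecom, a factor of hemogenic endothelium and blood stem cells, was at 4.30 and 2.85 CPM with cucurbitacin I and at 94.0 and 68.6 CPM with DMSO (log2 fold change -4.50, SE 0.26, edgeR adjusted p = 0.00152). Foxf1 (-4.23) and the Notch target gene Heyl (-2.42) fell as well. Of the endothelial and endocardial genes, 31 of 32 were tested, 18 were lower, 1 higher and 12 did not pass. That is 58.1% lower and 3.23% higher, beside 19.5% and 13.9% of all genes tested. The median was -1.78, and -2.01 to -1.31 over the alternatives. The sum of these genes was 105 and 114 CPM with cucurbitacin I and 277 and 357 CPM with DMSO. Emcn had 0 counts in both cucurbitacin I libraries. Kdr, the VEGF receptor gene that ETV2 activates, was at 8.48 and 11.97 CPM with cucurbitacin I and at 87.7 and 85.7 CPM with DMSO (log2 fold change -3.09, edgeR adjusted p = 0.00152). Ramp2, a co-receptor gene for adrenomedullin, fell by 3.84 (edgeR adjusted p = 0.00182). Vwf, the von Willebrand factor gene, had 5 counts with cucurbitacin I and 262 with DMSO, a DMSO over cucurbitacin I ratio of 42.7 (exact 95% counting interval 18.1 to 133). The cadherin gene Cdh5, a target of ERG, was at -1.54 (edgeR adjusted p = 0.0719) and was named after its value was seen. S1pr1, which encodes a receptor for sphingosine 1-phosphate, was higher by 0.61 (edgeR adjusted p = 0.0337), and missed the threshold with library totals (0.101) and on leaving out either DMSO library (0.164 and 0.0503) or the first cucurbitacin I library (0.0874).

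Of 13 early blood and hemogenic genes tested, 0 were higher, with a median of -3.20. Lower were 11, or 84.6%, beside 19.5% of all genes tested. Without DMSO replicate 2 this count was 6, and at a mean of at least 50 counts it was 6 of 8. Itga2b, the integrin gene that marks the first blood progenitors, was at 7.46 and 8.49 CPM with cucurbitacin I and at 63.1 and 83.2 CPM with DMSO (log2 fold change -3.20, SE 0.18, edgeR adjusted p = 0.00147). The receptor gene Kit fell by 2.14 (edgeR adjusted p = 0.00324). Vav1 had 1 count with cucurbitacin I and 185 with DMSO, a DMSO over cucurbitacin I ratio of 151 (exact 95% counting interval 26.7 to 5987). These intervals cover counting error only.

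**Figure D4:**
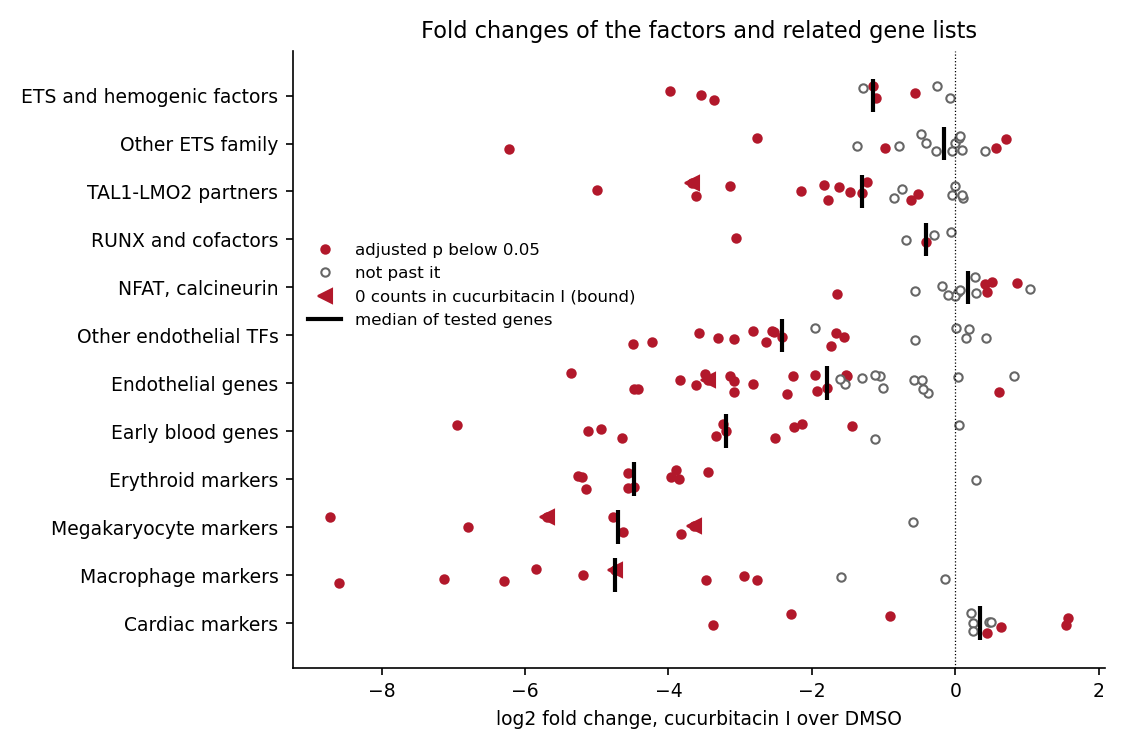
Log2 fold change of cucurbitacin I over DMSO for the tested genes of each list, filled where the adjusted p was below 0.05, with the list median as a vertical bar and genes without a count in cucurbitacin I drawn as triangles at their bound. The ETS and hemogenic factors have a median of -1.14, the other ETS genes -0.15 and the other endothelial factors -2.42.

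Across the 4 libraries, the 3 genes with the profile nearest to Tal1 were Reln, Ngfr and Itih5, at distances of 0.188, 0.291 and 0.361 on the log2 CPM scale after centring each gene. Reln, which encodes the secreted protein reelin, was at 1.43 and 4.52 CPM with cucurbitacin I and at 43.7 and 52.8 CPM with DMSO. The nearest to Erg were Pnoc, Bai2 and Gng2, at 0.192, 0.195 and 0.229. They were sought among 10689 genes averaging at least 5 CPM, and with 4 libraries in 2 groups such a distance mostly reflects the difference between the groups and that between the replicates.

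**Figure D5:**
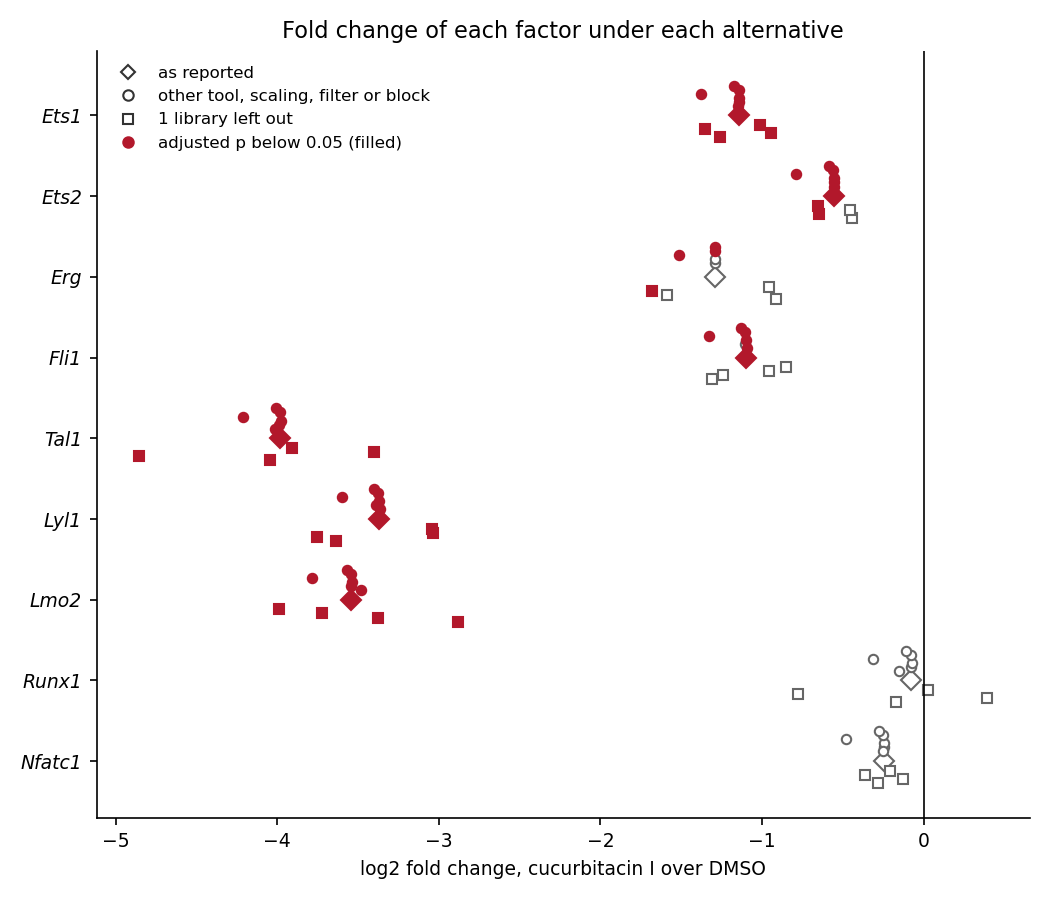
Log2 fold change of each tested factor as reported (diamonds), under other tools, scalings, filters or a replicate block (circles) and with 1 library left out (squares), filled where the adjusted p was below 0.05. Ets1, Tal1, Lyl1 and Lmo2 are filled throughout, while Runx1 ranges from -0.78 to 0.39.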

How the data were processed

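RNA was sequenced in 4 libraries made from total RNA with a TruSeq kit, per the labels' protocols. The submitters' processing notes name STAR 2.3.0e, HTSeq 0.6.0 and mm10, with no annotation or strand setting given in the sources used here. Deposited by the authors were whole-number counts per gene, a normalized signal (each count over its library's size factor) and, with DESeq2's column names per the file headers, their log2 fold change, its standard error and statistic (each a score with no fixed range), p-value and adjusted p-value. Of the table's 43374 lines, 4195 were repeats of a gene with more than 1 human ortholog and were dropped. Groups came from the sample titles.

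The test was edgeR's quasi-likelihood test (version 4.0.16, R 4.3.3), 2-sided, after TMM scaling and filterByExpr at a minimum count of 10. Its p-values were adjusted by Benjamini-Hochberg across all 16722 genes and read at 0.05. Standard errors were taken from the fold change and the F statistic (absolute log2 fold change over the root of F). CPM values are scaled by TMM, and exonic lengths, strands and overlaps come from GENCODE M21. The common biological coefficient of variation was 15.7% and the median standard error 0.17. Replicates differed beyond sampling noise (chi-square per degree of freedom 33.9 for cucurbitacin I and 24.4 for DMSO). The fit was run on counts simulated with a spread taken from these data and few changed genes, which does not check the p-values above. Alternatives were DESeq2 1.42.0, other scalings and filters, a replicate block and each library left out, with a lone library taken to vary as the other group does.

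The members and lists were chosen with earlier results of these data known. Named genes are all members, up to 3 genes past the threshold in the more frequent direction of each list and the 1 with the lowest adjusted p in the opposite direction, if any (all genes of a list under 6), and the 3 genes nearest in profile to Tal1 and to Erg. Csf1r and the markers at 0 counts with cucurbitacin I (Gp9, Gp6, Tyrobp and Emcn) fall outside this rule and were named after their values were seen. Where a library held 3 counts or fewer, the ratio of scaled group counts is printed with its exact 95% interval from the binomial, taking 3 counts for a group without any. The promoter search covered 4 motifs.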

Additional observations from a re-analysis of the deposited data

How the results depend on the processing

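The fit across all genes called 5577 genes, and with 1 library left out between 1850 and 5110, the lowest without DMSO replicate 1 and 3134 without DMSO replicate 2. Of the factors, 6 were called, 5 with DESeq2, 7 with library totals, with no filter or with a replicate block, and between 4 and 6 with 1 library left out. Tal1, Lyl1, Lmo2 and Ets1 passed under all 10 alternatives, with log2 fold changes between -4.86 and -3.40, -3.76 and -3.04, -3.99 and -2.88, and -1.38 and -0.95. Nfatc1 passed under none (-0.48 to -0.13). Runx1 was at -0.78 without cucurbitacin I replicate 1, and turned to 0.03 without DMSO replicate 2 and to 0.39 without cucurbitacin I replicate 2. Fli1 lost its call under 5 alternatives and Ets2 under 2, and Erg gained one under 4 of 9, since Erg was not tested at a mean of at least 50 counts. The cause was not tested. With the replicate number as a block, 6367 genes passed, and Erg did too (-1.29, adjusted p = 0.0211), the only factor whose call the block changed. Same-numbered libraries deviated from their group means with a correlation of 0.242 across genes, and no label says that a number marks a shared culture. One count was worth 0.0410 and 0.0452 CPM in the cucurbitacin I libraries and 0.0334 and 0.0368 CPM in the DMSO libraries. Etv2 could therefore not be compared, and Erg, Fli1 and Lyl1 rest on few counts. So does Tal1 with cucurbitacin I, at 8 and 20 counts.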
